A study of Homo sapiens with 16 samples.

Results

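Ubiquitin-specific proteases (USPs) form the largest family of deubiquitinases, the enzymes that take the small protein tag ubiquitin off other proteins or trim chains of it. In this family the cut is made by a cysteine protease domain, and the parts outside that domain, which vary widely in size, place each enzyme on chromatin, the proteasome, membranes or signalling complexes. A handful of USPs have close relatives that arose by gene duplication, so the family holds both unlike members and near twins. The USP mRNAs were taken from the gradient table by symbol, as the names that start with USP and a number, with USP10 left out by that rule. They came to 46 of 13148 genes. The rule used no measured value. It also takes in USP6NL, which encodes a GTPase-activating protein for a Rab GTPase and is no protease, leaving 45 proteases by name.

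The cells were 293S, an established human line of the HEK293 family, grown as adherent cultures. The control group had no treatment, and the other group had 1 mM sodium arsenite, a thiol-reactive compound that sets off the cellular stress response, for 30 minutes. Sucrose gradients were run, in which RNA in larger particles travels further. From each gradient 8 fractions were sequenced, 1 library for each treatment and fraction. The headers call them polysome fractions, after the polysome, an mRNA with several ribosomes on it. No group had a replicate, so differences among the 16 libraries have no replicate error and are given without p-values. Shares carry no expression level, so the cell line label could not be checked against marker levels. Whether fraction 1 was the top or the bottom of a gradient is not stated in the labels.

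The deposited value of a gene in a library is the share of that gene's gradient total that lay in that fraction. The level of an mRNA and the read depth behind a share are unknown. No USP mRNA was listed at 0 in any library, while 1523 of the 13148 genes were, most often in arsenite fraction 3, with 728 genes at 0. Each mRNA was given a position, the average of the fraction numbers with the shares as weights. The shift is the position with arsenite minus that in the control, and the relative shift is the shift minus −1.46 fractions, the median shift of all genes. The word moved is used where the relative shift reached 0.5 fractions in either direction and its sign stayed when any 1 fraction number was dropped from both gradients.

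On the deposited shares, all 46 USP mRNAs lay at lower fraction numbers with arsenite than in the control, as did 98.3% of all genes. Their shifts ran from −2.95 fractions for USP5 to −0.21 for USP12, with a median of −1.28. The median USP position went from 4.67 in the control to 3.38 with arsenite, against 4.54 and 3.10 for all genes. This direction depends on how the fractions were scaled against each other, for which the labels name no method. Size factors scale each library to its typical gene. By construction they take out most of a shift common to all genes, here and below, so they cannot decide the direction. With them, 19 of the 46 lay lower with arsenite (58.8% of all genes), and the median USP position turned, from 4.75 in the control to 4.79. Relative to the median gene, 15 USP mRNAs (32.6%) moved higher and 5 (10.9%) moved lower, where 23.6% and 24.0% of all genes met these rules. The other 26 met neither rule. With size factors 15 members moved higher and 7 lower (28.7% and 26.4% of all genes). The family's median relative shift was 0.17 fractions. Its quartiles were −0.17 and 0.60. It was 0.0123 when each gene was set against genes of like protein length (10 bins), where 10 members moved higher and 7 lower (22.7% and 23.6% of all genes). USP34, USP35, USP40, USP42 and USP51 were those no longer among the higher ones.

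**Figure D1:**
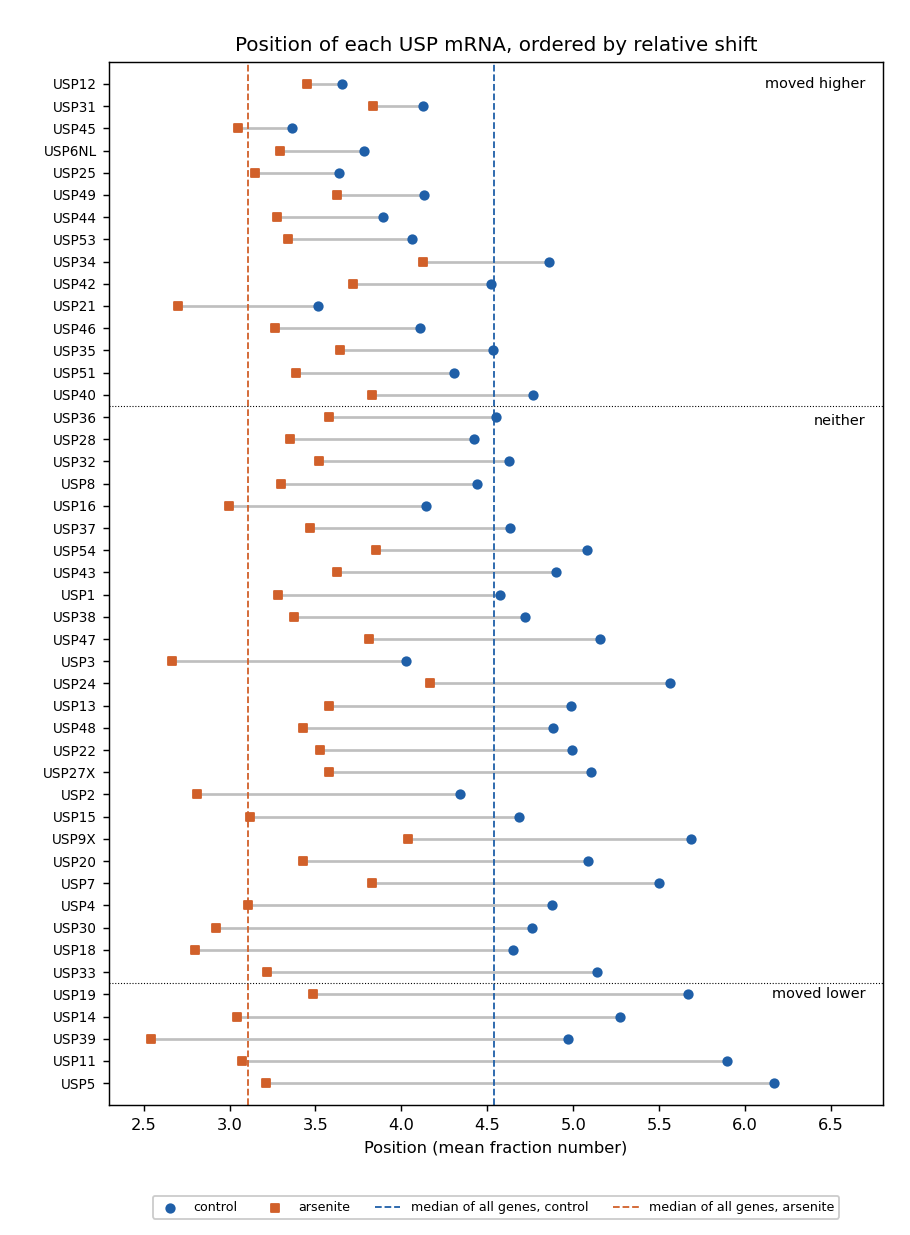
Position (mean fraction number, horizontal axis) of each of the 46 USP mRNAs in the control gradient (circles) and the arsenite gradient (squares), 1 value per gradient, ordered from the highest relative shift at the top to the lowest at the bottom. Dashed lines mark the medians of all genes, 4.54 and 3.10, and dotted lines part the 15 that moved higher, the 26 that met neither rule and the 5 that moved lower; every square lies left of its circle.

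The 5 that moved lower were USP5, USP11, USP39, USP14 and USP19. USP5, which takes apart free ubiquitin chains so that their units can be used again, lay furthest along of all members in the control. Its control shares in fractions 1 to 8 were 0.5%, 3.4%, 4.6%, 4.5%, 7.6%, 23.1%, 49.1% and 7.1%. With arsenite they were 1.5%, 26.8%, 37.6%, 23.1%, 7.2%, 2.4%, 1.0% and 0.5%. The bulk of this mRNA thus lay in fractions 6 and 7 of the control gradient and in fractions 2 to 4 of the arsenite gradient. Its position went from 6.17 to 3.21, a relative shift of −1.50.

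USP11, a nuclear protease tied to DNA repair, had a control profile of like shape. In fractions 1 to 8 it held 1.1%, 3.7%, 9.0%, 7.1%, 9.1%, 17.1%, 46.2% and 6.8% in the control. With arsenite it held 2.6%, 38.1%, 29.1%, 17.1%, 8.4%, 2.5%, 1.4% and 0.7%, so that fraction 2 took the place of fraction 7 as the largest. Its position was 5.89 and then 3.07, a relative shift of −1.37. USP39 encodes a spliceosome protein that keeps the USP fold but lacks the active site. It held 35.1% in fraction 6 of the control and 54.5% in fraction 2 with arsenite, the largest single share of any USP mRNA in either gradient. Its position was 4.97 and then 2.54, the lowest of the family with arsenite, and its relative shift was −0.97.

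USP14, which binds the proteasome and trims chains on its substrates, lay at 5.27 and 3.05, with a relative shift of −0.77. USP19, known for a form anchored in the endoplasmic reticulum membrane, lay at 5.67 and 3.48 (−0.73). Both held their largest control share in fraction 7, 31.5% for USP14 and 39.8% for USP19, and their largest arsenite share in fraction 3, 31.5% and 41.6%. Fraction 7 weighed on these values: without it in both gradients the relative shift was −0.98 for USP5, −0.72 for USP11, −0.28 for USP14 and −0.16 for USP19, so that the last 2 no longer met the rule. USP19 also fell short of it without fraction 8 (−0.66), as its sign then turned when a further fraction was left out. USP39 had a relative shift of −1.02 without fraction 7.

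**Figure D2:**
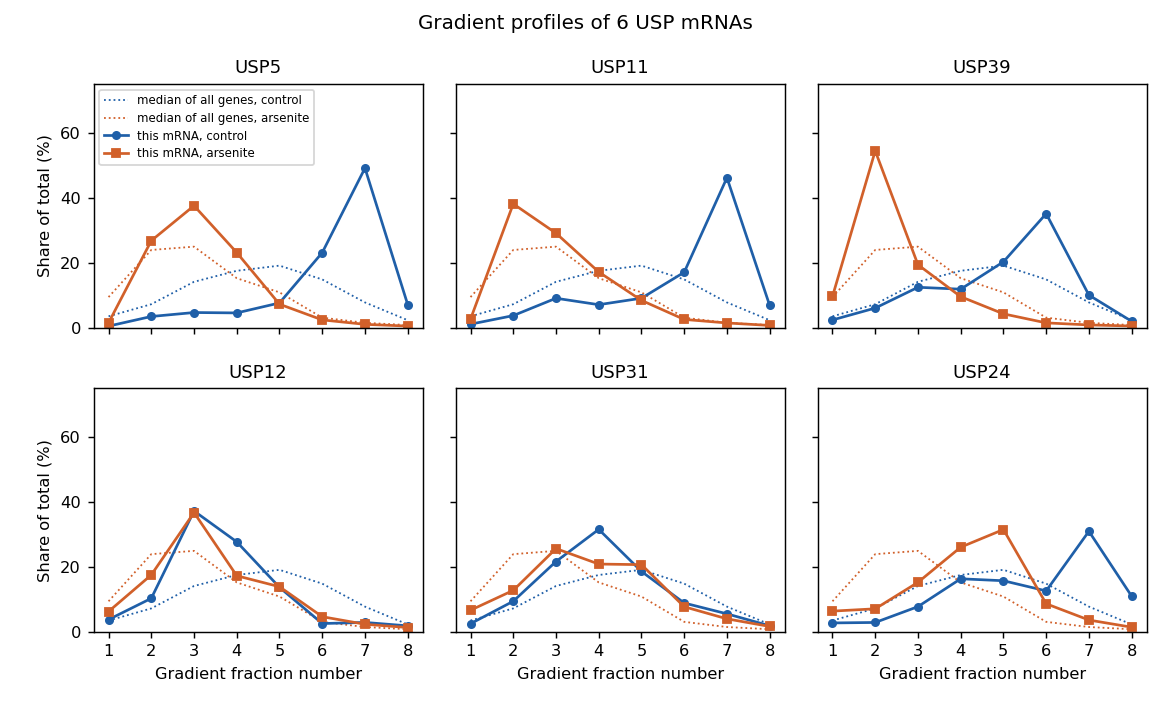
Share of the total (%, vertical axis) in each of 8 gradient fractions for USP5, USP11, USP39, USP12, USP31 and USP24 in the control (circles) and with arsenite (squares), 1 library per point. Dotted lines are the medians of all genes. USP5 and USP11 go from a peak of 49.1% and 46.2% in fraction 7 to peaks in fractions 3 and 2, whereas USP12 has its peak in fraction 3 of both gradients, with 27.7% and then 17.3% in fraction 4.

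At the other end, USP12 shifted least. USP12 is active only with WD-repeat cofactors, as is its close relative USP46. In fractions 1 to 8 it held 3.8%, 10.3%, 37.2%, 27.7%, 13.7%, 2.5%, 2.9% and 1.8% in the control. With arsenite it held 6.3%, 17.5%, 36.8%, 17.3%, 13.9%, 4.7%, 2.3% and 1.3%. Fraction 3 was the largest in both gradients. Its position went from 3.66 to 3.45, a relative shift of 1.25. Of the 46 members, USP12 alone had no lower share in fractions 5 to 8 with arsenite (22.2%, against 21.0% in the control), where 95.7% of all genes had a lower one. The median member held 55.7% there in the control and 22.4% with arsenite, against 53.9% and 16.4% over all genes. At least 50% of the total lay there for 26 members in the control and for none with arsenite, and for 58.6% and 2.34% of all genes. With size factors the share there was lower with arsenite for 19 members (55.3% of all genes), and the median difference turned from −28.4 to 3.36 percentage points.

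USP31 lay at 4.12 and 3.84 (relative shift 1.17) and kept 34.1% in fractions 5 to 8, against 34.9% in the control. USP45, which acts on the repair nuclease subunit ERCC1, lay lowest of the family in the control, at 3.37, and at 3.05 with arsenite (1.14). Its control profile was flat over fractions 1 to 5, which held 16.5%, 16.4%, 19.4%, 23.3% and 16.3%. USP25, known for its part in immune signalling, was flatter still, with 17.7%, 15.4%, 16.2%, 16.1% and 16.1% in those fractions, and was the 1 member with its largest control share in fraction 1. It lay at 3.64 and 3.15 (0.96, and 1.74 with size factors). USP6NL lay at 3.78 and 3.30 (0.97, and 1.53 with size factors).

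USP49 and USP44, related proteases that act on ubiquitinated histones, both moved higher. USP49 lay at 4.13 and 3.62 (relative shift 0.95) and USP44 at 3.90 and 3.28 (0.84). The rest of the 15 were USP53 (0.74), USP34 (0.72, but 0.53 and no longer called with size factors, and 0.42 against genes of like length), USP42 (0.65, but 0.34 against genes of like length), USP21 (0.64), USP46 (0.61, and 1.07 with size factors), USP35 (0.57, but 0.29 with size factors), USP51 (0.53) and USP40 (0.51). Of these, USP35, USP51 and USP40 met the rule in 7, 7 and 6 of 13 alternatives, which all kept the 0.5 threshold. USP12, USP31, USP6NL and USP49 met it in all 13, as did USP5, USP11 and USP39 in the other direction. USP6NL, USP49 and USP39 fell short of a threshold of 1 fraction. USP36, a nucleolar protease, lay just short of the 0.5 threshold at 0.49, and USP33 was the nearest on the other side, at −0.46.

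Most members that moved higher had started below the control median of all genes (4.54), but USP34 (4.86) and USP40 (4.77) had started above it. The control positions of the 15 ran from 3.37 to 4.86, with a median of 4.11. Those of the 5 that moved lower ran from 4.97 to 6.17, so the 2 sets did not overlap. With arsenite the sets did overlap, from 2.70 to 4.13 and from 2.54 to 3.48. The control position is itself part of the shift, so such a parting of the sets in the control is partly built in. Across the 46 members, which share the same 16 libraries, the Spearman correlation of control position with relative shift was −0.80. Across all genes it was −0.55. When each gene was set against genes of like control position (20 bins), the family had a median of 0.32. By that measure 10 members moved higher and 3 lower, where 17.8% and 20.3% of all genes did. USP5 (−0.66), USP39 (−0.64) and USP11 (−0.53) were the 3 that moved lower, USP14 (−0.30) met neither rule, and USP19 was at 0.11, the opposite direction. USP12 was at 0.67 and USP31 at 0.86, and both still moved higher. USP45 (0.35), USP25 (0.38), USP44 (0.38), USP53 (0.43), USP46 (0.30), USP21 (0.06), USP35 (0.48) and USP51 (0.33) no longer did. USP34 (0.91), USP24 (0.68), USP9X (0.65) and USP54 (0.59) were then among those that did.

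USP mRNAs lay closer together with arsenite than without it. The SD of position over the 46 members, which are genes and not replicates, was 0.63 fractions in the control and 0.38 with arsenite. Over all genes it was 0.63 and 0.64. Among the 7119 genes with no 0 and a protein length within the range of the family it was 0.58 and 0.47. With arsenite 36 members (78.3%) lay above the median of all genes, and in the control 28 did. The 7119 genes had a median position of 4.71 in the control and 3.30 with arsenite, against 4.67 and 3.38 for the family. The family's SD was lower with arsenite under all settings run. Its ratio of the arsenite to the control SD ran from 0.42 without fraction 5 to 0.77 without fraction 3.

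**Figure D3:**
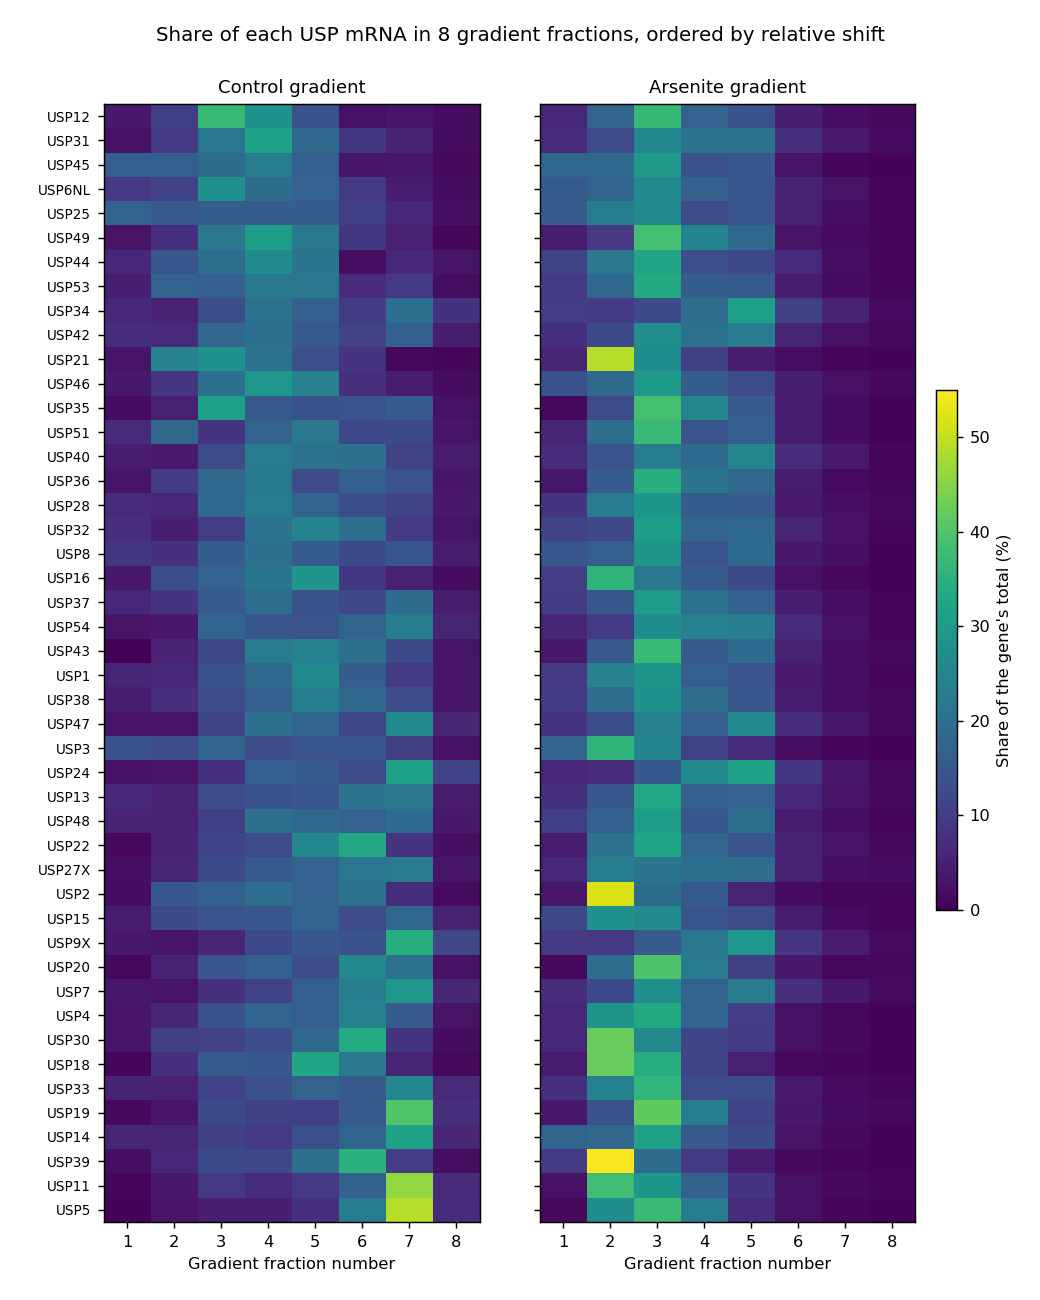
Share of each USP mRNA's total (%, colour) in fractions 1 to 8 of the control gradient (left) and the arsenite gradient (right), 1 library per column and 1 gene per row, ordered by relative shift as in the plot of positions. In the control the largest shares wander from fractions 3 and 4 at the top to fraction 7 at the bottom, while with arsenite 31 of 46 rows have their largest share in fraction 3.

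The fraction with the largest share differed between the gradients. In the control it was fraction 4 for 14 members, fraction 7 for 13, fraction 5 for 7, fraction 6 for 6, fraction 3 for 5 and fraction 1 for 1. Of all genes, 20.6% had fraction 4 largest, 28.6% fraction 5, 21.6% fraction 6, 10.7% fraction 3 and 1.24% fraction 1. Fraction 7 was thus the largest for 28.3% of the family, against 14.9% of all genes. With arsenite fraction 3 was the largest for 31 members (67.4%, against 37.2% of all genes). Fraction 2 was the largest for 10 (21.7%), below the 34.5% of all genes, and fraction 5 for 5 (10.9%, against 8.43%). Fraction 1 was the largest for no member, against 14.3% of all genes. Of the 13 mRNAs with fraction 7 largest in the control, 7 then had fraction 3 largest, 3 had fraction 2 and 3 had fraction 5. None of these 13 moved higher and 4 moved lower. Of the 1959 genes with fraction 7 largest in the control, 5.92% moved higher and 37.0% lower, and the control peak is itself part of the shift.

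The 10 mRNAs with fraction 2 largest with arsenite differed in how much of their total it held. After USP39, the share was 52.2% for USP2, a protease of MDM2 and cyclin D1, and 49.1% for USP21, a histone protease. USP18 held 42.3% there, USP30 42.1%, USP11 38.1%, USP16 35.8%, USP3 35.7%, USP15 27.9% and USP27X 23.4%. They had come from different parts of the control gradient. USP21 had its largest control share in fraction 3 (27.7%), USP18 in fraction 5 (32.4%) and USP30 in fraction 6 (33.5%). USP3, another histone protease, had a flat control profile with no share above 17.8%. Of these 10, USP21 moved higher, USP11 and USP39 moved lower, and the other 7 met neither rule. USP2 lay at 4.34 and 2.81 (−0.08, and in the opposite direction, 0.26, with size factors).

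Of the 31 members with fraction 3 largest with arsenite, USP19 held the most there, 41.6%, followed by USP20, a relative of USP33, with 39.7% and USP35 with 38.8%. USP35 also had its largest control share in fraction 3, at 31.5%. USP20 lay at 5.09 and 3.43 (−0.20) and USP33 at 5.14 and 3.22 (−0.46), so the 2 lay within 0.05 fractions of each other in the control and 0.21 apart with arsenite. USP37, which acts on cyclin A, lay at 4.63 and 3.47 (0.29). USP48, at 4.88 and 3.43, lay nearest of all members to the median gene in relative shift.

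For each fraction number the arsenite share was divided by the control share on the log2 scale, with 1 percentage point added to both, so ratios of small shares come out too near 0. These ratios are on the deposited scale, and with size factors the family's median ratio turned sign in fractions 1, 2, 4, 5 and 6, to 0.68 in fraction 5. In fraction 7 the median log2 ratio of the family was −2.25, against −1.86 for all genes. A ratio of −1 or less was found for 41 of 46 members, and for 82.6% of all genes. In fraction 6, 33 members met this rule (78.6% of all genes), and in fraction 8, 27 did (42.7%). In fraction 5, 5 members did so, against 41.9% of all genes, and the median ratio was −0.15 against −0.72. The median share in fraction 5 was 17.2% in the control and 14.9% with arsenite. In fraction 2 the ratio was at least 1 for 32 members (71.6% of all genes), with a median of 1.29. In fraction 3, 19 members reached 1 (35.0% of all genes), in fraction 1, 13 (58.3%), and in fraction 4, 3 (7.39%). No member had a ratio of −1 or less in fractions 1 to 4, where 1.69%, 1.31%, 7.25% and 21.2% of all genes did. A ratio of at least 1 in fractions 5 to 8 was found for 1 member, in fraction 6, against 7.26%, 2.48%, 1.81% and 1.08% of all genes in these 4 fractions.

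Protein length was read from 1 transcript model per gene and ranged within the family from 366 residues for USP46 to 3546 for USP34, with a median of 957.5 against 479 for all genes with a model. Its Spearman correlation with control position was 0.29 across the 46 members, and that with arsenite position was 0.68. Across 12316 genes with a model the values were 0.38 and 0.67. Genes share the libraries, so these are descriptions. The 3 longest members, USP34, USP24 and USP9X, lay at 4.13, 4.17 and 4.04 with arsenite, above the other 43, of which USP54 was highest at 3.85. USP24 and USP9X, which are related, and USP34, which acts in Wnt signalling, each had their largest arsenite share in fraction 5, at 31.5%, 29.2% and 31.3%. USP47 and USP40 were the other 2 members with fraction 5 largest. USP9X, a regulator of receptor traffic and of cell survival proteins, lay at 5.68 in the control and had a relative shift of −0.19, and USP24 lay at 5.56 (0.06). Neither met the rule in the main comparison, and both had the opposite sign under other settings, as USP24 was at −0.53 with size factors and USP9X at 0.13 without fraction 7.

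**Figure D4:**
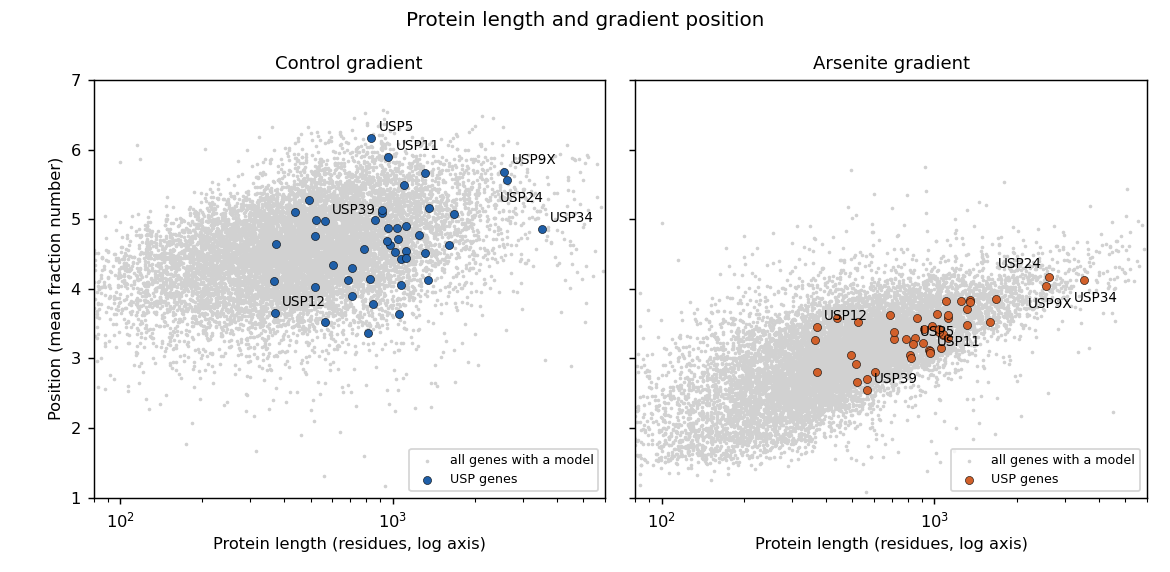
Position (mean fraction number) against protein length (residues, log axis) for the 46 USP mRNAs (large points) and all genes with a transcript model (grey), in the control gradient (left) and the arsenite gradient (right). With arsenite the USP points follow length more closely, with a Spearman correlation of 0.68 against 0.29 in the control; a few genes outside the axis limits are not shown.

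The lists of members by role are short, and their counts are read beside the 23.6% and 24.0% of all genes that moved higher and lower. Among proteases of chromatin and DNA repair, 5 of 15 moved higher, 1 lower and 9 met neither rule, with a median relative shift of 0.31. USP45, USP49, USP44, USP21 and USP51 were the 5, and USP11 was the 1. USP1, which takes ubiquitin off repair factors of the Fanconi anaemia pathway, lay at 4.57 and 3.28 (0.16). USP7, the protease that acts on both p53 and its ligase MDM2, lay at 5.50 and 3.83 (−0.21, but 0.41 against genes of like control position). Its largest control share was 29.2%, in fraction 7, and its largest arsenite share 26.9%, in fraction 3. USP22, the protease of the SAGA coactivator complex, lay at 4.99 and 3.53 (−0.01).

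Of 11 signalling and cell cycle members, USP12, USP25, USP34 and USP46 moved higher. None of the 11 moved lower, and their median relative shift was 0.11. With size factors 3 moved higher, 1 moved lower and the median was at 0.26, and against genes of like length the median was −0.18, the opposite direction. USP15, a regulator of TGF-beta signalling, lay at 4.69 and 3.12 (−0.11). USP18, which removes the ubiquitin-like protein ISG15, was the lowest of them at 4.65 and 2.80 (−0.40), although its near copy USP41 was not analysed here and reads could be shared between them. For membranes and organelles, none of 6 moved higher and USP19 moved lower. The median of the 6 was −0.29 on the deposited scale and −0.13 with size factors, with which 1 moved higher and 2 lower. Against genes of like control position the median was 0.13, the opposite direction, and against genes of like length −0.41. USP32 was the highest (0.35), with the same limit of shared reads for its relative USP6. USP8, which sorts receptors on endosomes, lay at 4.44 and 3.30 (0.32). USP30, an outer mitochondrial membrane protein that opposes mitophagy, lay at 4.76 and 2.92 (−0.38) and held 42.1% in arsenite fraction 2. In ubiquitin recycling, USP5 and USP14 moved lower, and USP13 had a relative shift of 0.05. Of the 3 members long listed as lacking activity, USP53 moved higher (0.74), USP39 moved lower (−0.97) and USP54 met neither rule (0.23, but −0.09 with size factors). The 7 less studied members ran from USP24 (0.06) to USP31 (1.17), with 4 moved higher and none moved lower. Their median relative shift was 0.51 (0.32 with size factors).

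Close relatives were compared in 17 pairs formed from 28 genes, some of which enter more than 1 pair. The relative shifts of 10 pairs differed by at least 0.5 fractions, 5 of which stayed that far apart when any 1 fraction was left out. The others were USP12 with USP46, USP25 with USP28, USP53 with USP54, and USP51 with USP22 and with USP27X. Over all 46 members the interquartile range of relative shift was 0.77 fractions, so members that are not related can differ as much. Of all 17 pairs, 12 lay closer together with arsenite than in the control. Over the 17 pairs the median difference in position was 0.69 fractions in the control and 0.19 with arsenite. The SD of position over all 46 members also fell, from 0.63 to 0.38. Whether related pairs drew together more, or differed more or less in relative shift, than other pairs of members was not tested. USP13 and USP5 were furthest apart in relative shift, by 1.55 fractions. USP13 lay at 4.99 in the control and USP5 at 6.17, and with arsenite they lay at 3.58 and 3.21. USP11 stood apart from its relatives USP15 and USP4 by 1.26 and 1.06. These 3 mRNAs lay at 5.89, 4.69 and 4.88 in the control and at 3.07, 3.12 and 3.11 with arsenite, within 0.05 fractions of each other. USP31 and USP43 differed by 0.99. The nearest pairs were USP22 with USP27X, at −0.01 and −0.07, and USP49 with USP44, and the sign of both differences turned when some fractions were left out. Leaving out each fraction in turn left the difference between USP13 and USP5 at 1.25 to 1.78, but that between USP11 and USP4 ran from 0.52 to 1.39.

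**Figure D5:**
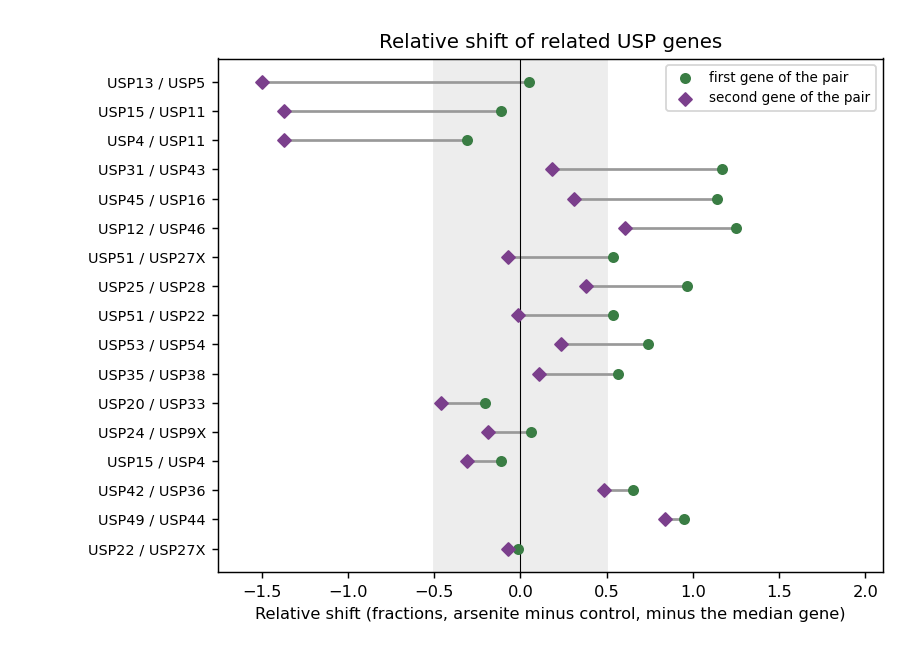
Relative shift (fractions, horizontal axis) of both genes of 17 pairs of related USP genes, ordered by the difference within the pair, 1 value per gene. The first gene named is the circle and the second the diamond, and the grey band marks sizes under 0.5; the widest pair, USP13 and USP5, spans 1.55 fractions and the narrowest, USP22 and USP27X, lies near 0.

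Transcript models of 28 members held at least 1 ATG, on the coding strand and in any frame, in the annotated 5 prime untranslated region. This feature was looked at after the values were seen. Among these 28 members, 11 moved higher and none lower. Among the 15 with such a region but no ATG in it, 2 moved higher and 5 lower. The models of the other 3 members, USP31, USP40 and USP24, had no such region. Of these 3, 2 moved higher and none lower. Over all genes with such a region, 29.2% of 6604 with an upstream ATG moved higher and 18.4% lower. Of the 5464 without one, 15.7% and 31.8% did. With size factors 12 of the 28 members moved higher and 1 lower, and 1 of the 15 moved higher and 6 lower. Of the 6604 genes 2305 then moved higher and 1367 lower, and of the 5464, 1102 and 1878. An upstream ATG was present in 65.1% of the USP models with such a region and in 54.7% of those of all genes. The members with an upstream ATG lay at a median of 4.54 in the control, and the 15 with such a region but no ATG at 4.99. With arsenite they lay at 3.36 and 3.35. The part of the control position in this difference was not tested beyond the centring on control position, by which 6 of the 28 moved higher and none lower (21.9% and 15.9% of all genes with an upstream ATG). By the same measure 1 of the 15 moved higher and 3 lower (12.1% and 25.5% of all genes without one).

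Partners and substrates of USPs did not share one direction. For SAGA, whose protease is USP22, ATXN7 (relative shift 1.11) and ATXN7L3 (0.76) moved higher and ENY2 (−0.98) moved lower. WDR48, the cofactor of USP1, USP12 and USP46, was at 0.02 (−0.03 with size factors), and WDR20, which joins it on USP12 and USP46, moved higher (0.55). MDM2 moved higher (0.88), and GMPS, a metabolic enzyme that binds USP7, moved lower (−1.06). Among the USP8 partners, STAM moved lower (−0.53), but met neither rule with size factors (−0.40), and STAM2 was at −0.09. In all, 4 of the 12 genes on this list moved higher and 3 lower, shares near those of all genes (23.6% and 24.0%).

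Among 30 genes listed as other deubiquitinases, 9 moved higher and 6 lower, against 23.6% and 24.0% of all genes. Their median relative shift was 0.18. With size factors 13 of the 30 moved higher and 5 lower. The list was drawn from symbols that the rule did not match and was not confined to other enzyme families. It held CYLD (0.49) and USPL1 (0.63, moved higher). MYSM1, a histone deubiquitinase, was highest (1.11) and UCHL1, an abundant enzyme of neurons, lowest (−1.65). Among ubiquitin-conjugating enzymes, 34 genes named UBE2 had a median of −0.33, and 5 of them moved higher and 11 lower. Of 44 genes named PSMA to PSMG, which encode proteasome subunits, activators and assembly factors, 37 moved lower, with a median of −1.30, and the 1 that moved higher, PSMC3IP, is a recombination factor and no subunit. Median protein lengths were 957.5 residues for the USP family, 424 for the other deubiquitinases, 180 for UBE2 and 264 for the PSM genes. The median relative shifts of the 4 sets against genes of like protein length were 0.0123, 0.27, 0.00674 and −1.20.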

How the data were processed

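The authors deposited 1 table for 16 libraries. Per the file headers it holds exons of RefSeq genes in NSR-primed gradient fractions, and the submitters' processing notes name the build hg19. For the aligner, read counting, strand, filters and scaling of fractions, the labels and headers name no method. The deposited values are in the unit fraction (shares, the 8 of a gradient summing to 1), beside 3 deposited score columns (mean fraction number per gradient and their difference), which differed from values recomputed here by at most 9.99e-15. Groups came from the sample titles.

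Positions, shifts and calls were computed over all 13148 genes with Python 3.11.15, numpy 2.4.6, pandas 2.3.3 and scipy 1.17.1, and the calls were tested on simulated profiles. The simulated profiles had planted shifts larger than the threshold and counting error only, so they do not bear on error between libraries or in scaling. No statistical test across conditions was possible with 1 library per treatment and fraction. Log2 ratios used a pseudocount of 1 percentage point. Lengths and upstream ATGs came from 1 GENCODE 29 protein-coding transcript per gene, the principal isoform, or the longest where the principal one coded for less than 50% of it. Symbols matched for 12316 genes (93.7%) and for all 46 members. That annotation is on another build, so no coordinates are printed. No protein sequence was used here, so identities between relatives are not given.

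Genes were named by a rule: the 6 highest and 6 lowest relative shifts, the extremes of each role list and of control position, the 4 widest and 2 nearest related pairs, those nearest the threshold and 10 set members. Any other member named was picked with its values in view. The members, lists and rules were chosen with earlier results of these data known. Alternatives were size factors, a pseudocount before shares, leaving out each fraction, and genes with no 0. Centring on control position (20 bins) or protein length (10 bins) was also run. These are the 13 alternatives over which kept calls were counted. Other thresholds and the 50% point were run besides these 13.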

Additional observations from a re-analysis of the deposited data

How the results depend on the processing

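No paired analysis was possible because each treatment and fraction had 1 library and the result comes from no test. Depth is unknown, so the counting error of small shares cannot be given, and no replicate bears on any difference. Median-of-ratios size factors scale each library to the typical gene and so take out most of a common shift by construction. With them the median shift of all genes was −0.23 instead of −1.46, which cannot decide the direction of the common shift. The common shift depends on the scaling of fractions, while relative shifts do so less. The relative shifts of 7 members changed sign with size factors. The same 5 members moved lower and 13 of the 15 that moved higher remained, without USP34 and USP35; USP28 and USP32 also moved higher, and USP4 and USP33 lower.

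The median relative shift of the family (0.17) was 0.31 with size factors, 0.16 with a pseudocount of 1 percentage point before shares, 0.21 over genes with no 0, 0.32 and 0.0123 when centred on control position and on protein length, 0.16 without USP6NL and 0.27 by the point of 50% of the total. Without fractions 1 to 8 in turn it was 0.0873, 0.18, 0.28, 0.16, 0.0726, 0.15, 0.27 and 0.21. The number that moved higher (15) ran from 10 to 21 under these settings and a threshold of 0.25 (17.8% to 34.8% of all genes). It was 3 of 46 at a threshold of 1, a share near the 6.69% of all genes. The number that moved lower (5) was 8 without fraction 1 or 5 (21.0% and 24.4% of all genes). With size factors, centring on protein length, no fraction 6 or the 50% point it was 7 (26.4%, 23.6%, 22.3% and 31.6%). Without fraction 4 it was 6 (25.4%), and without fraction 7 or 8 it was 4 (23.1% and 23.2%). It was 3 when centred on control position (20.3%), 9 at a threshold of 0.25 (31.3%) and 2 at 1 (9.33%).

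The median difference in the share in fractions 5 to 8 (−28.4 percentage points) was −26.3 with the pseudocount before shares, −28.8 without USP6NL, −26.6 for fractions 6 to 8 and 3.36 with size factors, the opposite direction. The median log2 ratios in fractions 1 to 8 were 0.91, 1.41, 0.92, −0.19, −0.16, −1.72, −2.74 and −1.80 with a pseudocount of 0.1, and 0.29, 0.75, 0.62, −0.12, −0.10, −0.79, −0.92 and −0.28 with 10. With size factors they were −0.36, −0.30, 0.19, 0.19, 0.68, 0.53, −0.32 and −0.17, the opposite direction in fractions 1, 2, 4, 5 and 6. Relative to all genes, the family then still lay higher in fractions 5 and 6, where all genes had 0.11 and 0.12. The relative shift of USP19 was 0.11 when centred on control position, and the median of the 3 members long listed as lacking activity was −0.0913 with size factors against 0.23. The cause was not tested for any of these.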
